A study of Mus musculus with 2 samples.

Results

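The genes described here encode proteins that transcribe or copy the mitochondrial genome or, for Tfb1m, methylate its ribosomal RNA. They are 10 named nuclear genes of the mouse, taken from a list chosen by function with earlier results of these data known. Tfam, Tfb1m, Tfb2m, Polrmt and Tefm were grouped under transcription, and Polg, Polg2, Twnk, Ssbp1 and Top1mt under replication. The 10 genes were set beside all 21318 protein-coding genes with a known start site on chromosomes 1 to 19 and X. The data were chromatin immunoprecipitation and sequencing peaks of NRF1, nuclear respiratory factor 1, in the mouse line CH12.LX, which the labels give as a female B-cell lymphoma of strain B10.H-2aH-4bp/Wts. Both libraries, labelled biological replicates 1 and 2, came from this 1 line, and the labels name no treatment or genetic change, so there was 1 group and no comparison between groups. A control library was named among the inputs of the mm10 lists and was not analysed here. The files hold peak positions and no expression values, so the identity of the cells rests on the labels, and no statement about the genes' expression can be drawn.

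The mitochondrial genome is a small circle that nuclear-encoded proteins copy and transcribe. Transcription needs the polymerase POLRMT, the packaging and initiation factor TFAM and the initiation factor TFB2M, and replication needs the polymerase POLG, the helicase Twinkle and a single-strand binding protein. NRF1 binds GC-rich DNA close to start sites as a dimer, at a 10-base GC-rich palindrome called the NRF1 consensus, and in human cells TFAM, TFB1M and TFB2M are textbook NRF1 targets.

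The sequences near the NRF1 summits show how far the genes differ in their closeness to that consensus, and they are printed for that reason. Each is given 5′ to 3′ on the gene's own strand, which is the minus strand for all but Twnk and Ssbp1. Capitals mark, inside each printed piece, the stretches with the fewest mismatches to the 10-base consensus on either strand within 50 bp of the summit. Overlapping stretches run together, and an equally close stretch can lie outside the piece. No printed piece holds more than 30 bases of exon sequence that is not translated, so some pieces are shorter than others. The pieces of Tfb2m and of the stronger Polg peak lie beside the summit and do not contain it. Most pieces come from the NCBIM37 (mm9) genome near summits of the mm9 peak set. Tfam, Ssbp1 and the stronger of 2 Polg peaks have no mm9 summit at that place, and their sequence comes from the RefSeq promoter table of GRCm38.p6 (mm10). At that Polg peak the promoter window ends short of 50 bp downstream of the summit, so a closer match there would be missed.
Polrmt, chr10:79209313-79209342, mm9, 0 mismatches: cctgcaggcgGCGCGTGCGCGTGCGCactg
Tefm, chr11:79955368-79955468, mm9, 0 mismatches: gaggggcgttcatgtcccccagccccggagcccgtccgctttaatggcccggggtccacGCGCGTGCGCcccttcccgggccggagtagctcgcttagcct
Tfb2m, chr1:181476377-181476406, mm9, 1 mismatch: gctaggtcgtTCGCATGCGCcattcgtaat
Twnk, chr19:45080918-45081018, mm9, 1 mismatch: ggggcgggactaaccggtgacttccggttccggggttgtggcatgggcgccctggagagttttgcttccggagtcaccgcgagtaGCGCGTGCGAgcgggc
Top1mt, chr15:75509140-75509216, mm9, 2 mismatches: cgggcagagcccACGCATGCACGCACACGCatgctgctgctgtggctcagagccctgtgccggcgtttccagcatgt
Tfb1m, chr17:3557727-3557756, mm9, 3 mismatches: cacctttccaGCCGCTGCGCGTGGCTgtgt
Polg, chr7:86611279-86611379, mm9, 3 mismatches: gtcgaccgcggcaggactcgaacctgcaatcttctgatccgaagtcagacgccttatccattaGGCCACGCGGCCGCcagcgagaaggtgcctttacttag
Polg, stronger peak, chr7:79466268-79466297, mm10, 3 mismatches: GCACCCCCGCGGGCGGGCGGctccattggc
Polg2, chr11:106640716-106640786, mm9, 3 mismatches: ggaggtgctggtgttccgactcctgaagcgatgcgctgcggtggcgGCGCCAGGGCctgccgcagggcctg
Tfam, chr10:71238045-71238074, mm10, 3 mismatches: ccacagtaCCCCGCGCGCGGcgggcatgat
Ssbp1, chr6:40471235-40471335, mm10, 4 mismatches: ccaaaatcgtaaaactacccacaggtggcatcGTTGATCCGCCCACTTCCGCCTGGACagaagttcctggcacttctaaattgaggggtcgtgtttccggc
The polymerase gene Polrmt holds 2 exact, overlapping copies of the consensus, and Tefm holds 1.

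A promoter peak was defined as a summit within 1000 bp of a start site. In the optimal set of 17547 peaks, selected by the authors from both replicates, 6 of the 10 genes had a promoter peak when each gene's outermost RefSeq start was used. The share over all protein-coding genes by the same rule was 36.8% (7838 of 21318). The 6 genes were Tfb1m, Tfb2m, Tefm, Polrmt, Ssbp1 and Top1mt, and the 4 without were Tfam, Polg, Polg2 and Twnk. Polg was without one only by the choice of start, because its outermost start lies 1638 bp upstream of the start listed in the RefSeq promoter table. When the starts listed there were used instead, 7 of 10 genes had a promoter peak, against 39.2% of all protein-coding genes.

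The other peak sets changed which genes counted. The conservative set, 15936 peaks chosen more strictly for recurrence between replicates, gave 7 of 10 genes, against 35.5% of all genes, and here Tfam and Twnk entered and Ssbp1 left. The 17547 highest-signal peaks of replicate 1 alone gave 7 genes, against 37.9% of all genes, adding Twnk. The same number of peaks of replicate 2 alone gave 7, against 36.6% of all genes, adding Tfam and Twnk and losing Ssbp1. The mm9 set of 11216 peaks, set beside every GENCODE start of 20568 genes, gave 8 of 10, against 35.1% of all genes, with Tfam and Ssbp1 the genes left out. Tfb1m, Tfb2m, Tefm, Polrmt and Top1mt had a promoter peak in all 6 of these counts, and each of the other 5 genes was missing from at least 1 of them.

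The strength of a peak is given as the signal value of the authors' caller, which describes and ranks peaks within 1 list and has no stated unit. Over the 6 genes with a peak in the optimal set the signal had a median of 143 and ran from 21.0 to 642. Over all 7838 protein-coding genes with a promoter peak the median was 85.5, with quartiles of 36.0 and 418, and 4 of the 6 genes lay above that median. The 6 genes thus ran from percentile 7.37 (Ssbp1) to percentile 98.3 (Polrmt) of the genes with a promoter peak. The other 4 genes have no signal value by this rule.

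**Figure D1:**
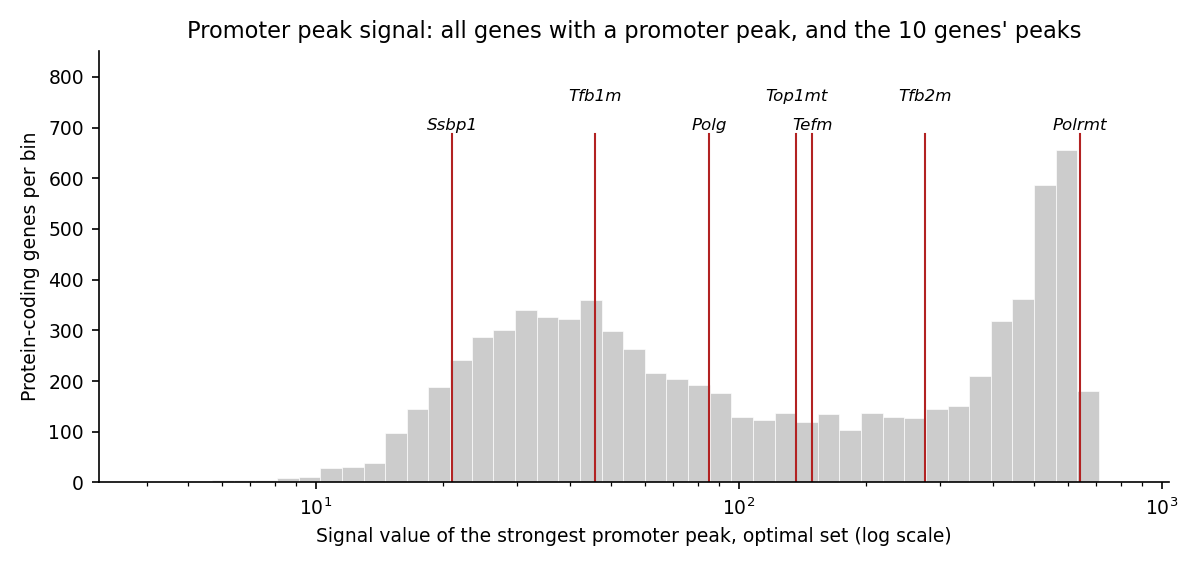
Grey bars count protein-coding genes (vertical axis) by the signal value of their strongest promoter peak in the optimal set (horizontal axis, log scale). Red lines mark the optimal peaks at 7 of the 10 genes, with Ssbp1 at 21.0, Polrmt at 642 and the others between 45.8 and 276, and Polg is drawn by its promoter-table start.

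Among the transcription genes, Polrmt, which encodes the RNA polymerase of mitochondria, had by far the highest signal. Its peak had a signal of 324 in replicate 1 and 319 in replicate 2, a mean of 322 ± 3.57 (SD, n = 2), and 642 in the optimal set. The peak ran from 79746397 to 79746809 on chromosome 10 (mm10), ranked 145 in the set and exceeded the promoter peaks of 98.3% of the genes that had one. Its summit lay 1 bp inside the outermost start and 22 bp upstream of the listed one. The replicates were close to each other, with summits 12 bp apart.

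Tfb2m encodes the initiation factor that opens mitochondrial promoters with POLRMT. Its peak, on chromosome 1 from 179546179 to 179546408 (mm10), had a signal of 158 in replicate 1 and 117 in replicate 2 (138 ± 28.8, SD, n = 2) and 276 in the optimal set, at the 66.7th percentile of genes with a promoter peak. The summit lay 12 bp upstream of the listed start, and the mm9 set placed its own summit at the same distance. The Cnst gene starts 139 bp away on the other strand and shares this peak, so the peak cannot be assigned to 1 of the genes.

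Tefm encodes the elongation factor that keeps POLRMT on its template. Signal at Tefm was 75.2 in replicate 1 and 73.1 in replicate 2 (74.2 ± 1.50, SD, n = 2), and 149 in the optimal set, for a peak on chromosome 11 from 80141819 to 80141990 (mm10), at the 58.4th percentile. Both replicates put the summit deep inside the gene, 237 or 238 bp from the listed start and 955 or 956 bp from the outermost one, so Tefm passed the 1000 bp rule only narrowly when the outermost start was used. The mm9 summit lay 237 bp inside as well, in an intron, and the exact consensus match sat 14 bp from it. A weaker mm9 peak, with a signal of 41.0 against 232 for the intronic one, lay 17 bp from the start.

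Tfb1m, whose product is a methyltransferase of mitochondrial ribosomal RNA related to TFB2M, had a moderate peak. Its signal was 28.9 in replicate 1 and 16.9 in replicate 2 (22.9 ± 8.50, SD, n = 2), with 45.8 in the optimal set, at the 33.7th percentile. The peak ran from 3557579 to 3557922 on chromosome 17 (mm10), with its summit 4 bp inside the listed start. The long noncoding RNA gene 1700102H20Rik starts 28 bp away on the opposite strand, under the same peak, so the peak cannot be assigned to 1 of the genes.

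Tfam, the packaging protein of mitochondrial DNA and an activator of its transcription, had no peak in the optimal set near its start. The nearest optimal summit was 46958 bp away, inside Ube2d1. The conservative set held 2 weak peaks there, on chromosome 10 from 71237886 to 71238229 and from 71238176 to 71238519 (mm10), with signals of 12.5 and 6.50 and summits 14 and 304 bp upstream of the listed start. The relaxed lists, which include background by design, gave 9.28 in replicate 1 and 10.3 in replicate 2 (9.78 ± 0.709, SD, n = 2). The levels were close between replicates, but the summits were 345 bp apart, the widest gap among the 9 genes with a summit in both. The pooled relaxed peak at Tfam ranked 27701, and of the 1007 pooled peaks within 500 ranks of it, 3.87% were in the optimal set and 2.09% in the conservative set. Its signal exceeded the strongest pooled value of 57.5% of all protein-coding genes, of which 40.3% have no pooled summit within 1000 bp.

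**Figure D2:**
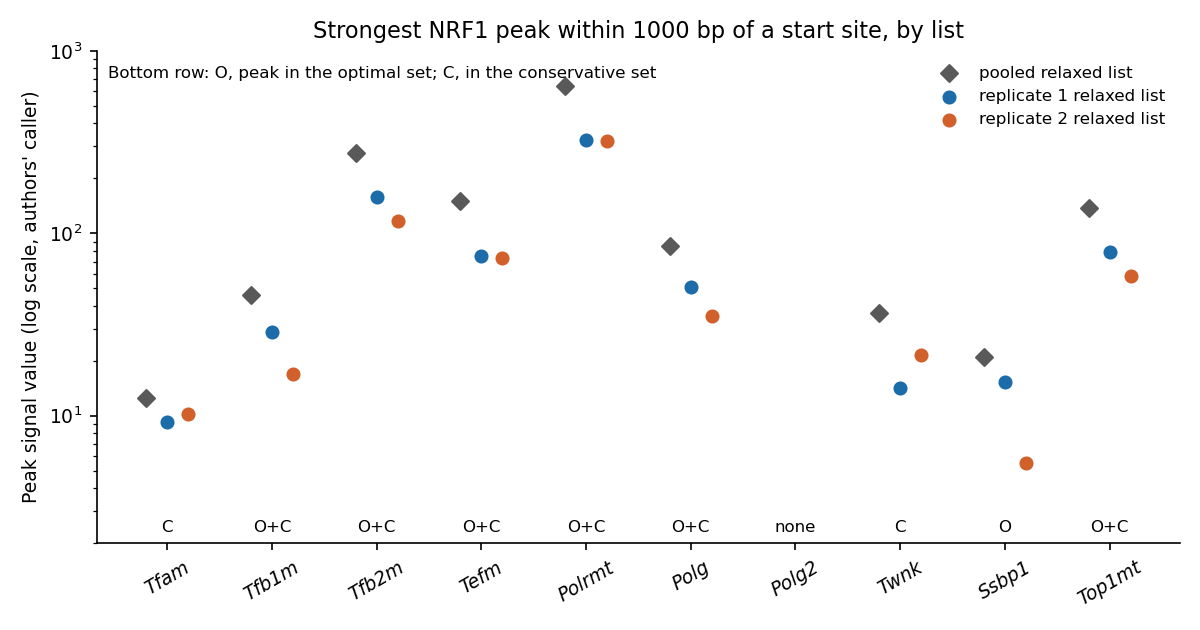
The signal value (vertical axis, log scale) of the strongest peak within 1000 bp of a start is shown for each gene in the pooled relaxed list (grey diamonds), replicate 1 (blue) and replicate 2 (orange). The bottom row marks presence in the optimal and conservative sets; Polrmt stands highest in every list, the replicates of Ssbp1 lie farthest apart by ratio, and Polg2 has no point.

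Among the replication genes, Top1mt had the highest signal. It encodes the mitochondrial type I topoisomerase, which relaxes the DNA circle. Signal was 78.5 in replicate 1 and 58.4 in replicate 2 (68.5 ± 14.2, SD, n = 2), and 137 in the optimal set, at the 57.1th percentile of genes with a promoter peak. The peak ran from 75678698 to 75678801 on chromosome 15 (mm10), with its summit 42 bp inside the gene, and a second optimal peak with a signal of 26.0 lay 621 bp upstream. Replicate 1 had the higher value at the main peak, and both replicates gave nearly the same value, 13.4 and 13.3, at the upstream one.

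Polg, the catalytic subunit of the mitochondrial DNA polymerase, also carried 2 optimal peaks close together. The stronger, on chromosome 7 from 79466077 to 79466420 (mm10), had a signal of 85.2, with 50.8 in replicate 1 and 35.4 in replicate 2 (43.1 ± 10.9, SD, n = 2) for the strongest peak of each. Its summit lay 24 bp inside the listed start. The second, with a signal of 56.4, had its summit 175 bp upstream of that start, over the transfer RNA gene n-TRtcg5. The mm9 set had a peak at that upstream place, 170 bp from the start with a signal of 123, and no summit at the start itself. That mm9 peak cannot be assigned to Polg or to the transfer RNA gene alone. At the outermost Polg start the pooled relaxed list held only a weak summit of 7.08.

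Twnk encodes Twinkle, the helicase of the mitochondrial replication fork. It had a conservative peak, on chromosome 19 from 45006287 to 45006630 (mm10), with a signal of 36.4 but no optimal one, and the nearest optimal summit was 11464 bp away, in Lzts2. Replicate 1 gave 14.2 and replicate 2 gave 21.5 (17.8 ± 5.16, SD, n = 2), so this was the gene with the largest excess of replicate 2. The summit was the same in the conservative set and in replicate 2. It lay 99 bp upstream of the second of 2 listed starts and 796 bp inside the outermost one. It was also 17 bp from the start of Mrpl43, a mitoribosome gene on the opposite strand, so the peak cannot be assigned to 1 of the genes. The pooled peak ranked 9054, and among the pooled peaks within 500 ranks of it, 35 (3.50%) were not in the optimal set. Of the 9054 peaks at that rank or better, 42 (0.464%) were not. The mm9 set held a peak of 43.6 at this place.

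Ssbp1, the single-strand DNA binding protein of mitochondria, showed the opposite pattern, an optimal peak that the conservative and mm9 sets lacked. The signal was 15.3 in replicate 1 and 5.54 in replicate 2 (10.4 ± 6.90, SD, n = 2), and 21.0 in the optimal set, at the 7.37th percentile, or the 17.0th when only replicate 1 was used. Replicate 1 was 2.76 times replicate 2, while over 7818 genes with an optimal promoter peak the median ratio was 1.07, with 5th and 95th percentiles of 0.622 and 2.19. In replicate 2 the peak ranked only 55753, and the replicates' summits were 148 bp apart. The optimal peak ran from 40471113 to 40471456 on chromosome 6 (mm10) and its summit lay 129 bp upstream of the outermost start, and the nearest conservative summit was 660513 bp away.

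Polg2 encodes the accessory subunit that makes POLG processive, and it stood apart from the other 9 genes. None of the 3 relaxed mm10 lists, of 299924 to 299936 peaks each, had a summit nearer to its start than 8126 bp. The pooled list left a gap of 17328 bp between summits around it, though it held 38 summits within 50 kb, and the nearest optimal summit was 8213 bp away, in Ddx5. The mm9 set, made from both replicates' alignments, nevertheless had a Polg2 peak, on chromosome 11 from 106640578 to 106640953 (mm9), with a signal of 67.9 and a summit 85 bp inside the gene, which ranked 6946 of 11216. Measured from the outermost RefSeq start, a distance to the nearest relaxed summit at least as long was found at 2119 of 21318 genes (9.94%). Of those 2119, 20 (0.944%) had an mm9 promoter peak at any GENCODE start, Polg2 among them.

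**Figure D3:**
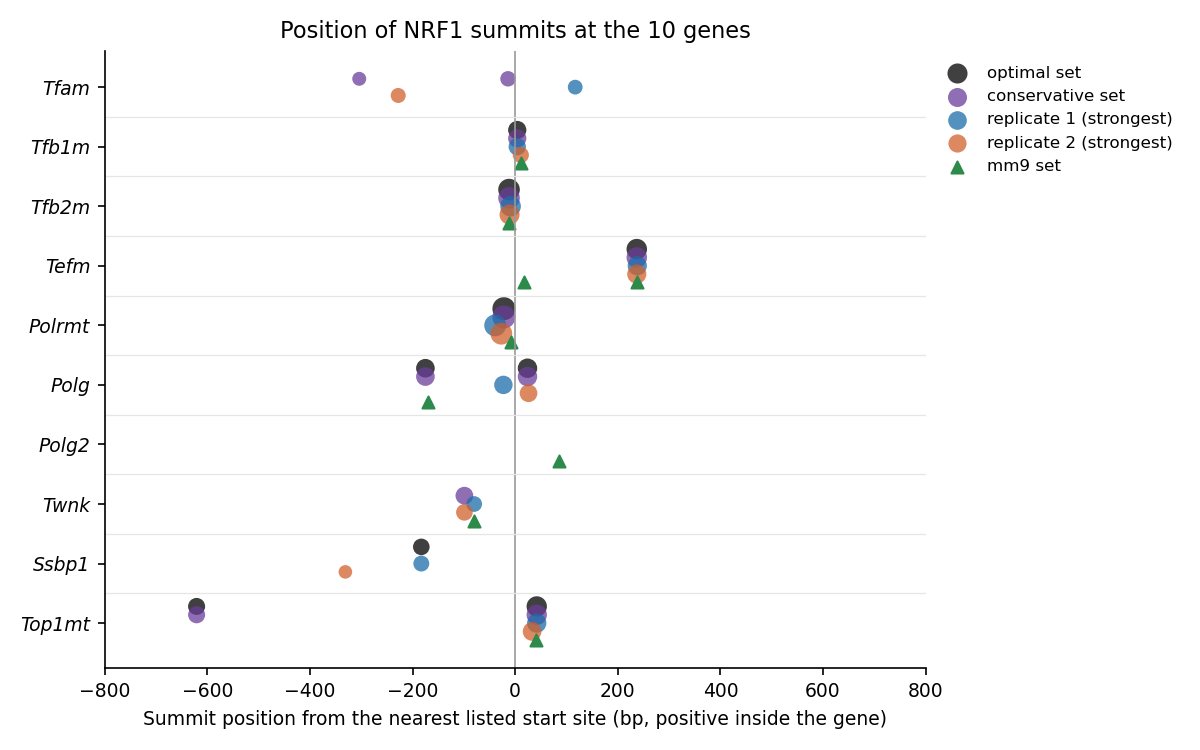
Each point is a summit, placed by its distance in bp from the nearest start listed for the gene (horizontal axis, positive inside the gene), with 1 row per gene and 1 colour per list. Circle area grows with signal, and triangles of fixed size show the mm9 set. The strongest summits of the lists lie close together at Tfb1m, Tfb2m, Tefm, Polrmt and Top1mt, and at Twnk, which has no optimal point. They scatter at Tfam and Ssbp1. Tefm has a second mm9 summit 17 bp inside the gene, and Top1mt has weaker optimal and conservative summits 621 bp upstream.

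Among the 9 genes that had a summit in both replicates, the replicates placed it most alike at the genes found in all 6 counts. At these 5 genes, Polrmt, Tfb2m, Tefm, Top1mt and Tfb1m, the replicates' strongest summits were 1 to 12 bp apart. At Twnk, Polg, Ssbp1 and Tfam the gaps were 19, 49, 148 and 345 bp. The counts include sets chosen for recurrence between replicates, so close summits are partly built into the choice of the 5 genes. No gaps over all genes stand beside these values, which are a description only. Replicate 1 had the higher signal at 7 of the 9 genes, Tfam and Twnk being the exceptions. Over 7818 genes with an optimal promoter peak the ratio of replicate 1 to replicate 2 had a median of 1.07 and quartiles of 0.952 and 1.36. Replicate 1 was thus the higher at most genes, and the 7 of 9 is not particular to these genes. All of these values describe 2 libraries, and the number of reads behind them is not known.

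The promoter sequences, 300 bases from 250 before to 50 after a listed start, were read for the 9 genes in the RefSeq promoter table, of which Twnk has 2 windows. The exact consensus, searched on both strands, was in 1 of the 9 genes (11.1%), Polrmt, and in 3.58% of all 17274 promoters and 8.09% of those with an optimal peak. With up to 1 mismatch it was in 3 genes, Polrmt, Tfb2m and Twnk, against 14.6% of all promoters and 28.7% of those with an optimal peak. The best match in the windows of Tfb1m, Tefm, Polg, Polg2 and Tfam had 3 mismatches. Counted from the start base as 0, the exact Polrmt copies began at bases -6 and 0, and the Tfb2m match ran from base 11 to base 20.

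The search for other motifs, chosen with earlier results of these data known, found 1 in more of the genes. The 7-base ETS core CCGGAAG, a core bound by the ETS factor family to which GABP (also called nuclear respiratory factor 2) belongs, was in 7 of the 9 genes' windows on 1 strand or the other. The share was 13.1% of all promoters and 23.5% of the promoters with an optimal peak. The 7 genes were Ssbp1, Polg, Tfam, Polrmt, Tefm, Polg2 and Twnk. They include Polrmt, the gene of highest signal, as well as genes with weak or missing NRF1 peaks. The 2 without the core were Tfb1m and Tfb2m. The core lay 9 to 66 bases upstream of the start in each of the 7, with a second copy further upstream in Twnk. The SP core GGGCGG was in 6 of 9 genes, against 49.8% of all promoters and 72.5% of those with an optimal peak. The CCAAT box CCAAT was in 2, against 42.7% and 43.0%, and the YY1 core GCCATNTT in 0 of 9, against 7.53% and 12.5%. None of these cores is part of the NRF1 consensus, although an SP match can share bases with a GC-rich near match. GC content over the 10 windows was 46.7% to 70.3%. These are matches of letters in a window and not evidence of binding.

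Around the mm9 summits the genes spread over the classes of match. Within 50 bp of a summit, 2 of the 8 genes with an mm9 peak had the exact consensus, against 8.80% of all 11216 mm9 peaks. The genes were counted by the closest match at any of their promoter summits. The shares are over single peaks, including those away from promoters, so the 2 are not strictly alike. With up to 1 mismatch there were 4 of 8 against 34.0%, with up to 2 mismatches 5 of 8 against 62.8%, and with up to 3 all 8 against 88.2%. Polrmt, with its 2 exact copies, had a signal of 6497, and Tefm, with 1 exact copy, had 232, against a median of 1978 and a lower quartile of 647 over all mm9 peaks with an exact match. With 1 mismatch Tfb2m had 632 and Twnk 43.6, against a median of 537 and a 5th percentile of 42.7 in that class. Top1mt with 2 mismatches had 206, against a class median of 103. With 3 mismatches Polg2 had 67.9, Tfb1m 65.1 and the second, weaker Tefm peak 41.0, against a class median of 59.3. Polg, also with 3 mismatches, had 123 at its upstream peak over the transfer RNA gene n-TRtcg5. A better match thus did not always go with a stronger peak within these 8 genes.

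**Figure D4:**
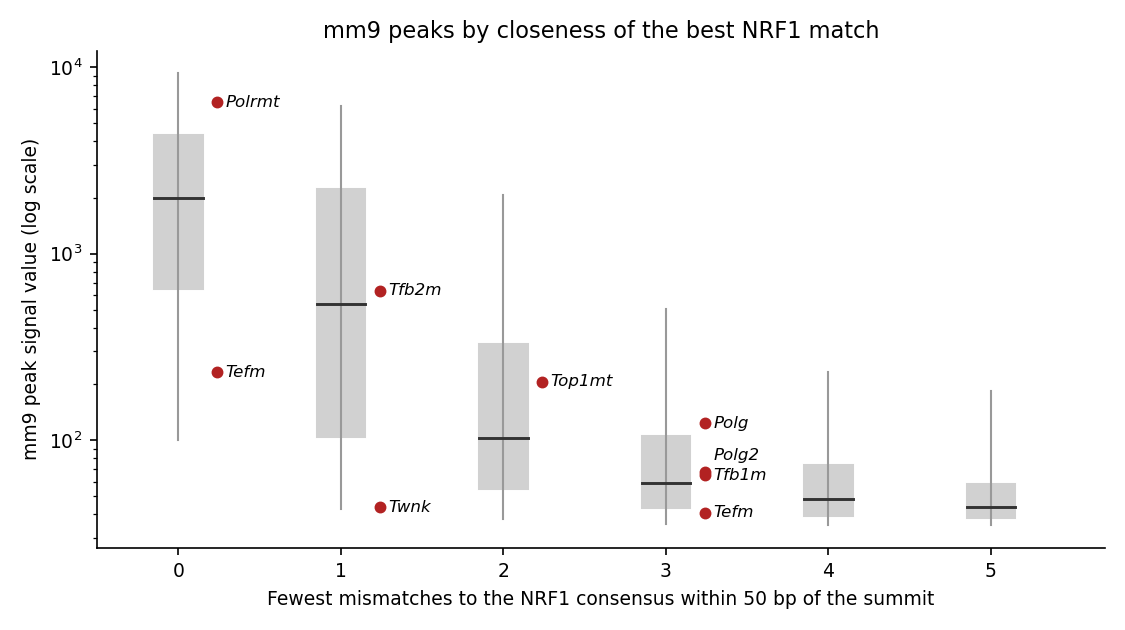
The mm9 peak signal (vertical axis, log scale) is shown by the fewest mismatches to the consensus within 50 bp of the summit (horizontal axis). Grey boxes span the quartiles of all mm9 peaks, dark lines the medians and thin lines the 5th to 95th percentiles; red points are the peaks of the 8 genes, with Polrmt at 6497 and Twnk at 43.6.

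Other genes of mitochondrial DNA and RNA upkeep were taken from 4 lists of 46 genes. The lists were chosen by function but with earlier results of these data known, so their shares are a description only. The 10 genes above had 6 with a promoter peak and a median signal of 143, against 34 of the 46 (73.9%) and a median of 289 in these lists, and against 36.8% of all protein-coding genes. No test was made of the difference. In replication and repair 11 of 12 had one, with a median of 410, led by Dna2, a nuclease and helicase, at 648 and Exog, an exonuclease, at 597. Rnaseh1, which removes RNA from RNA-DNA hybrids, was the gene without one. In nucleotide supply 7 of 10 had one, with a median of 133, led by Sucla2, a subunit of succinyl-CoA ligase, at 561 and the inner membrane protein gene Mpv17 at 288. Suclg1, the partner subunit of Sucla2, and Tk2, the mitochondrial thymidine kinase, had none. In RNA processing 14 of 18 had one, with a median of 267, led by Fastkd3 at 510 and the poly(A) polymerase gene Mtpap at 486, while Fastkd5 and the deadenylase gene Pde12 had none. In the termination list only 2 of 6 had one, Mrpl12 at 565 and Mterf3 at 217, and Mterf1a and Mterf1b had none.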

How the data were processed

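Peak lists were used as the authors deposited them. Text notes deposited beside them say that relaxed lists were made on mm10 per replicate and from pooled reads, always against a control, that the irreproducible discovery rate then selected the optimal and conservative sets, and that the mm9 set came from both replicates' alignments, with no control listed. The sources used here do not name the aligner, caller, thresholds or read numbers, so depth is unknown and no interval is given. The deposited signal column described and ranked peaks within a list, and the deposited score column described the selected sets. Signals of different builds, or of pooled and single replicates, were not compared.

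A gene's start was its outermost RefSeq end on GRCm38.p6, with strand from the RefSeq promoter table (17274 genes) or GENCODE vM1 symbols (3649) or synonyms (395), and 313 of 21631 genes without strand were left out. Promoter windows were located in NCBIM37 by exact sequence match, without converting coordinates. Python 3.11.15, numpy 2.4.6 and pandas 2.3.3 were used, and the peak and site search was tested on simulated data. No test was run, since there is 1 group. Named genes were the 10 genes, neighbours starting within 1000 bp of their starts or summits, and from each other list the 2 strongest genes with a peak and the first 2 without one in alphabetical order, and genes over a distant nearest summit. Members, lists and motifs were chosen with earlier results of these data known. Alternatives were other promoter widths, peak sets, single replicates, starts and motif definitions.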

Additional observations from a re-analysis of the deposited data

How the results depend on the processing

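The number of genes with a promoter peak was 6 of 10 and kept between 5 and 8 under 9 alternatives. It was 5 within 500 bp, where Tefm left, against 7180 of all 21318 protein-coding genes. In the 8773 optimal peaks of higher signal it was 5, where Ssbp1 left, against 5740 of 21318. It was 7 within 2000 bp, where Polg entered, against 8354 of 21318. When any base of the peak counted it was 6, against 7936 of 21318. With either replicate left out it was 7, against 8085 of 21318 without replicate 2 and 7812 without replicate 1. The count over all protein-coding genes ran from 5740 to 8357, and that of the 46 other genes from 29 to 38. Promoter starts from the RefSeq table were an alternative chosen after seeing the data.

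Motif counts depended on the definition. In the promoter windows the exact consensus was in 1 gene (3.58% of all promoters). Up to 1 mismatch gave 3 (14.6% of all promoters), and up to 2 mismatches gave 4 of 9 (38.9% of all). The 8-base part GCATGCGC or its variant GCCTGCGC gave 2 (10.3% of all). The exact consensus within 500 bp to either side of the start on mm9 gave 2. That longer window has no share over all promoters beside it, so its count cannot be judged. At the mm9 summits the exact consensus was in 2 genes, 1 mismatch gave 4 of 8 (34.0% of all mm9 peaks), 2 mismatches 5 (62.8%) and the 8-base part or its variant 1 (23.4%), while windows of 25 or 100 bp gave 2. Tfam and Ssbp1 are near the lower end of the signal, and without read numbers it cannot be said how far depth limits them. No paired analysis was possible because there is 1 group and no test.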

Other observations

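Polg2 was 1 of 20 genes with an mm9 promoter peak at any GENCODE start and no relaxed mm10 summit nearer than 8126 bp to the outermost RefSeq start. Its mm9 signal was 67.9. The highest mm9 signals of the 20, given here after their values were seen, were 5290 at a peak that Srsf2 and Mfsd11 share, 3115 at Srsf7, 1877 at Pabpc1, 1286 at Abhd18 and 760 at Uggt2. The nearest relaxed summit was 12310 bp from the start of Srsf2, 10846 bp from that of Mfsd11, 12499 bp from that of Srsf7, 11879 bp from that of Pabpc1, 23021 bp from that of Abhd18 and 9179 bp from that of Uggt2.

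Over all genes, 247 of the 7216 with an mm9 promoter peak (3.42%) had no relaxed summit within 1000 bp in any of the 3 mm10 lists. Of the same 7216, 918 (12.7%) had no optimal promoter peak. Here mm9 peaks were counted at every GENCODE start, and mm10 summits at the outermost RefSeq start only. A change of start and a difference between lists cannot be told apart in these counts. Polg is among the 918, although optimal peaks lie at its listed start. The optimal and conservative sets also differed at other genes in the ways seen at Ssbp1 and Twnk. Of 7838 genes with an optimal promoter peak 657 (8.38%) lacked a conservative one, and of 7573 with a conservative one 392 (5.18%) lacked an optimal one. By interval, 13813 of 17547 optimal peaks (78.7%) overlapped a conservative peak, and 13763 of 15936 conservative peaks (86.4%) overlapped an optimal one.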
